A study of Mus musculus with 7 samples.

Results

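Fitm1 and the other proteins that build, coat and fuse lipid droplets were followed through the liver RNA of ApoE-/- mice given saline or PX-478. The set comprises 10 genes: Fitm1, Fitm2, Plin2, Plin4, Plin5, Cidea, Cideb, Cidec, Hsd17b13 and G0s2. They were picked by symbol, and 9 of the 10 were among the 14889 genes of the count table. G0s2, which encodes an inhibitor of the main triglyceride lipase, was not in it and was not analysed here. After a filter on low counts 8 of the 9 were among the 13693 genes tested, and Cidea was not. Fitm1 was put at the head of the set because of its saline and PX-478 values in these same libraries, so every value of that contrast is given for the 9 genes as a description and not as a test.

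All the mice were C57BL/6 ApoE-/- animals, 4 months old, kept on Western diet for 3 months. Lack of apolipoprotein E, the ligand by which lipoprotein remnants are cleared, was thus common to both groups. Saline was given to 4 of them and PX-478, at 40 mg/kg, to the other 3, in both cases by intraperitoneal injection on a schedule described as bi-weekly. PX-478, the N-oxide of the alkylating drug melphalan, is used to lower HIF-1α, the oxygen-regulated transcription factor. No sample of mice on ordinary diet was included, and nothing in the sample descriptions states how the animals were housed or paired, so errors measure the spread between these libraries.

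A lipid droplet is a store of triglyceride and cholesteryl ester under a single layer of phospholipid. It forms within the endoplasmic reticulum membrane, where FIT proteins partition triglyceride and help the droplet bud. Perilipins then coat its surface and control the access of lipases, CIDE proteins sit where droplets touch and pass lipid from the smaller to the larger, and enzymes such as HSD17B13 bind the surface. In the liver some of these proteins accumulate with steatosis, and Plin2 is a widely used marker of it.

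The libraries held 10285776 to 17257304 counted reads each. Saline library 3 stood apart from the others on the first principal component of all genes tested, at 84.3 against -31.6 to 0.59. On the second component PX-478 library 3 lay lowest, at -56.2 against -8.16 to 36.2 in the others. PX-478 library 2 had the lowest share of mitochondrially encoded reads, 22.4% against 27.1% to 36.7% in the other 6. The hepatocyte markers Alb, Ttr and Cps1 were present in all libraries, with mean levels in saline of 23540, 3571 and 216 CPM (read counts relative to library size, scaled between libraries by the TMM method). Only Cfd, the adipsin gene, passed the threshold of an adjusted p of 0.05 over all genes in edgeR's quasi-likelihood test, with an adjusted p of 0.000662 and a log2 difference of -5.89 (SE 0.50).

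Among the 8 tested genes, Fitm1 showed the widest separation between the groups. Its level was 76.9, 82.2, 65.7 and 57.4 CPM in saline libraries 1 to 4, and 19.1, 28.8 and 32.9 CPM in PX-478 libraries 1 to 3. The highest PX-478 library lay well below the lowest saline library, and the groups did not overlap. Group means were 70.5 ± 11.2 CPM (SD, n = 4) in saline and 26.9 ± 7.12 CPM (SD, n = 3) in PX-478, a level 2.62-fold lower. On the log2 scale the difference was -1.39 (SE 0.23, 95% interval -1.88 to -0.90), and the authors' deposited table gives -1.39. The reads behind it numbered 916 to 1181 in saline libraries and 274 to 505 in PX-478 libraries. None of the 8 tested genes of the set passed the threshold over all genes in edgeR, where 0.0073% of all genes tested did, and 2 of the 8 had an unadjusted p below 0.05, as did 6.97% of all genes tested. DESeq2 called 1 of the 8, Fitm1, and 0.606% of all genes, and limma-voom called 0 of the 8 and 0% of all genes. Of the 8, Fitm1 alone had groups that did not overlap. Over all genes tested, the share without overlap was 8.57%, of which 4.29% were higher and 4.28% lower in PX-478 (percentages of all genes tested).

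Fitm1 (Entrez Gene 68680) lies on chromosome 14 from 55575674 to 55576952 in mm10, on the plus strand, with 2 exon blocks that together span 971 bases. Its protein, an endoplasmic reticulum membrane protein best known from skeletal muscle, binds triglyceride. The nearest genes on either side, chosen after their values were seen, had mean levels closer to each other in the 2 groups. Dcaf11, 5609 bases upstream, stood at 236 ± 30.9 CPM in saline (SD, n = 4) and 260.5 ± 51.9 CPM in PX-478 (SD, n = 3), a log2 fold change of 0.14 (SE 0.20). Psme1, 1542 bases downstream, stood at 109 ± 8.29 CPM and 101 ± 29.7 CPM (log2 fold change -0.11, SE 0.21). Of the Fitm1 exons, 109 bases are shared with an annotated antisense gene, Gm15932, which was not in the table. The counting is not stated to use strand, so reads of both genes could not be separated.

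Fitm2, the widely expressed paralogue of Fitm1, was far less abundant and gave no such separation. It stood at 6.25, 5.55, 3.04 and 5.32 CPM in saline libraries 1 to 4 and at 1.04, 6.73 and 2.74 CPM in PX-478 libraries 1 to 3. The highest and the lowest of all 7 values were both in PX-478, and the groups overlapped. On the log2 scale PX-478 differed from saline by -0.53 (SE 0.52, 95% interval -1.65 to 0.60), and it ran from -0.0871 without PX-478 library 1 to -1.41 without PX-478 library 2. Per kilobase of exon, Fitm1 exceeded Fitm2 in each library, by 44.0 to 88.3 times in saline and by 74.6, 17.5 and 49.1 times in PX-478. Fitm2 exons share 227 bases with an antisense gene that was not in the table, 2310001K24Rik.

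**Figure D1:**
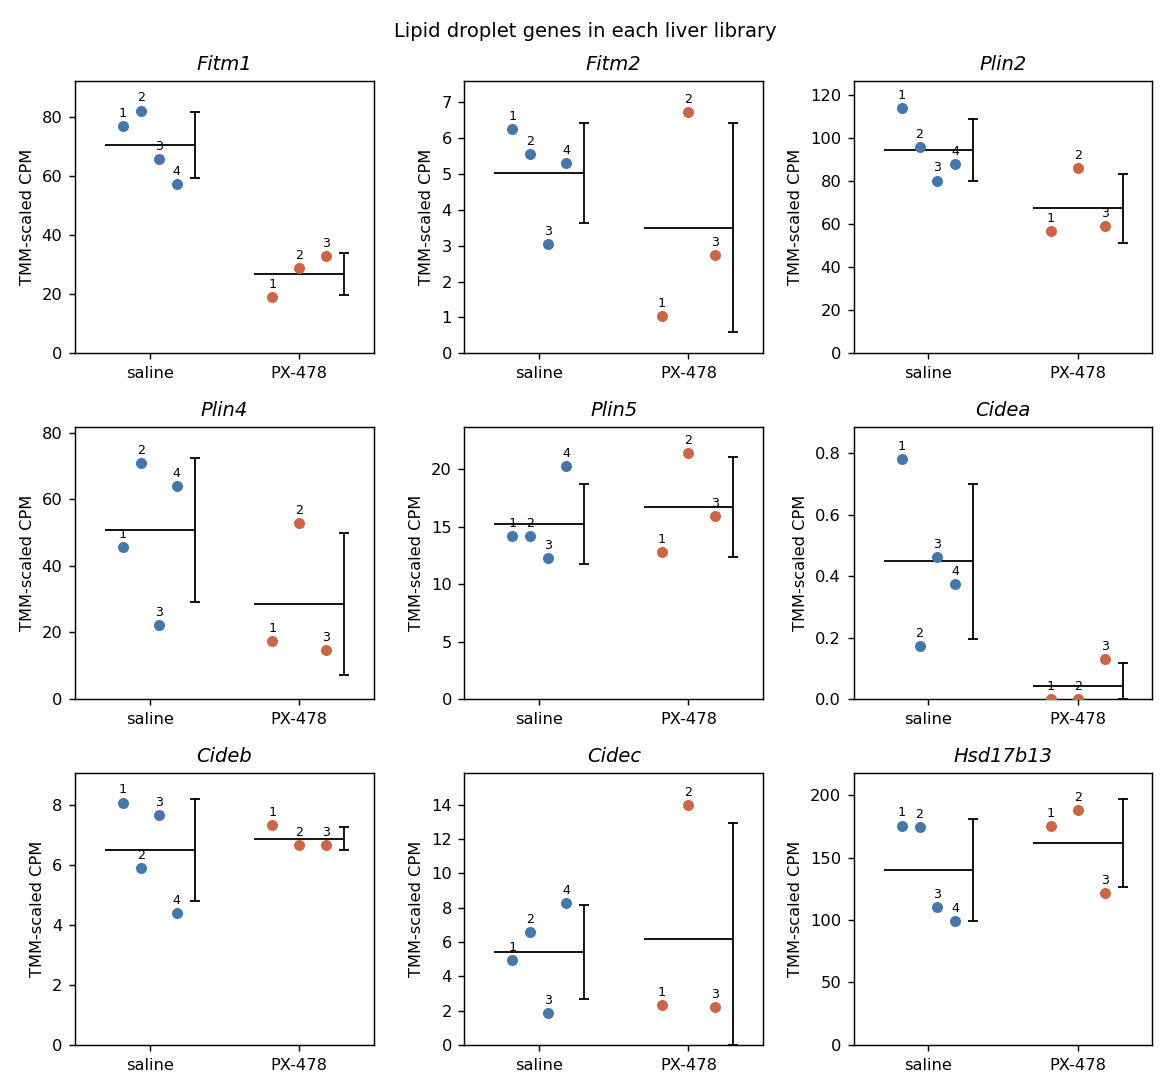
TMM-scaled CPM of the 9 genes in each liver library, with the replicate number above each point, the group mean as a line and the SD as a bar (n = 4 saline, n = 3 PX-478), cut at 0 where it would pass below. Fitm1 lies between 57.4 and 82.2 CPM in saline and between 19.1 and 32.9 CPM in PX-478, whereas Fitm2, Plin4 and Cidec have 1 high PX-478 library, number 2.

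Of the perilipins, Plin2, which coats droplets in nearly all cells and is the main perilipin of fatty liver, stood at 114, 95.9, 80.3 and 87.8 CPM in saline libraries 1 to 4. In PX-478 libraries 1 to 3 it stood at 56.7, 85.9 and 59.4 CPM. PX-478 libraries 1 and 3 lay below every saline library, and library 2 lay within the saline range. Means were 94.5 ± 14.5 CPM (SD, n = 4) and 67.3 ± 16.1 CPM (SD, n = 3), with a log2 fold change of -0.49 (SE 0.21, 95% interval -0.94 to -0.04). Leaving out 1 library gave -0.375 (without PX-478 library 1) to -0.70 (without PX-478 library 2), and without saline library 3 and PX-478 library 2 it was -0.77. Scaling by library size alone gave -0.305.

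Plin4, a long perilipin of adipocytes and muscle that binds nascent droplets, had the widest spread of the perilipins. It stood at 45.7, 70.9, 22.3 and 63.9 CPM in saline libraries 1 to 4. In PX-478 it stood at 17.5, 53.0 and 14.9 CPM, so that libraries 1 and 3 were below every saline library and library 2 was above 2 of them. On the log2 scale PX-478 differed from saline by -0.83 (SE 0.54, 95% interval -2.09 to 0.43). Leaving out 1 library gave -0.525 (without PX-478 library 3) to -1.65 (without PX-478 library 2), and without saline library 3 and PX-478 library 2 it was -1.89.

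Plin5 tethers droplets to mitochondria in tissues that oxidise fat. Its saline libraries held 14.2, 14.2, 12.3 and 20.3 CPM, and its PX-478 libraries 12.8, 21.5 and 15.9 CPM. The ranges overlapped almost entirely, with a log2 fold change of 0.13 (SE 0.25, 95% interval -0.41 to 0.67), which was -0.089 without PX-478 library 2. Plin4 and Plin5 are neighbours on the minus strand of chromosome 17, from 56100587 to 56109948 and from 56111597 to 56117606 in mm10, 1649 bases apart. The ratio of Plin4 to Plin5 per length was 1.16, 1.80, 0.66 and 1.14 in saline libraries 1 to 4 and 0.49, 0.89 and 0.34 in PX-478 libraries 1 to 3. That of Plin2 to Plin5 was 4.77, 4.01, 3.88 and 2.57 in saline and 2.63, 2.38 and 2.22 in PX-478. Only saline library 4 reached the PX-478 range in the ratio of Plin2 to Plin5.

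Of the CIDE genes, Cidec encodes FSP27, the protein that drives the growth of large droplets, and is itself induced in fatty liver. It stood at 4.95, 6.59, 1.85 and 8.27 CPM in saline libraries 1 to 4, and at 2.30, 14.0 and 2.22 CPM in PX-478 libraries 1 to 3. PX-478 library 2 held the highest level of all 7, and the other PX-478 libraries were close to saline library 3, the lowest. The log2 fold change was 0.18 with all libraries (SE 0.71, 95% interval -1.41 to 1.78) and -1.26 without PX-478 library 2. It was -0.11 without saline library 3 and -0.23 in limma-voom, so that its sign was not fixed.

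Cideb, the CIDE gene of hepatocytes with a role in lipoprotein lipidation, was the steadiest member of the set in PX-478. Its saline libraries held 8.07, 5.89, 7.66 and 4.38 CPM, and its PX-478 libraries 7.31, 6.65 and 6.65 CPM. All PX-478 libraries lay inside the saline range, and the log2 difference was 0.08 (SE 0.29, 95% interval -0.56 to 0.71). Of the 1488 exonic bases of Cideb, 1136 are shared with Nop9 on the opposite strand, so its level is uncertain. Nop9 stood at 22.8 ± 2.36 CPM in saline (SD, n = 4) and 21.7 ± 2.58 CPM in PX-478 (SD, n = 3).

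Cidea, abundant in brown fat and reported in steatotic liver, was near the limit of detection. It had 12, 2, 7 and 6 reads in saline libraries 1 to 4 and 0, 0 and 2 reads in PX-478 libraries 1 to 3. A count of 3 reads in 1 library corresponds to 0.174 to 0.292 CPM, so the 3 PX-478 libraries and saline library 2 lay under that floor. Summed over groups, 27 saline reads against 2 PX-478 reads, each a rounded mean of 2 columns per sample, gave a ratio of 9.22. The ratio is per counted read, without TMM scaling. With these means taken as single counts, its exact 95% interval was 2.32 to 80.0, which covers counting error only. The authors' deposited table gives a log2 fold change of -3.09 for Cidea. The groups did not overlap, at levels where a few reads decide the order.

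Hsd17b13, a droplet-bound retinol dehydrogenase of hepatocytes, was the member with the most reads and differed little between the groups. It stood at 176, 174, 110 and 99.4 CPM in saline libraries 1 to 4 and at 175, 188 and 122 CPM in PX-478 libraries 1 to 3. Saline libraries 1 and 2 were close to PX-478 libraries 1 and 2, and saline 3 and 4 were lower. On the log2 scale PX-478 differed from saline by 0.21 (SE 0.25, 95% interval -0.33 to 0.75).

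**Figure D2:**
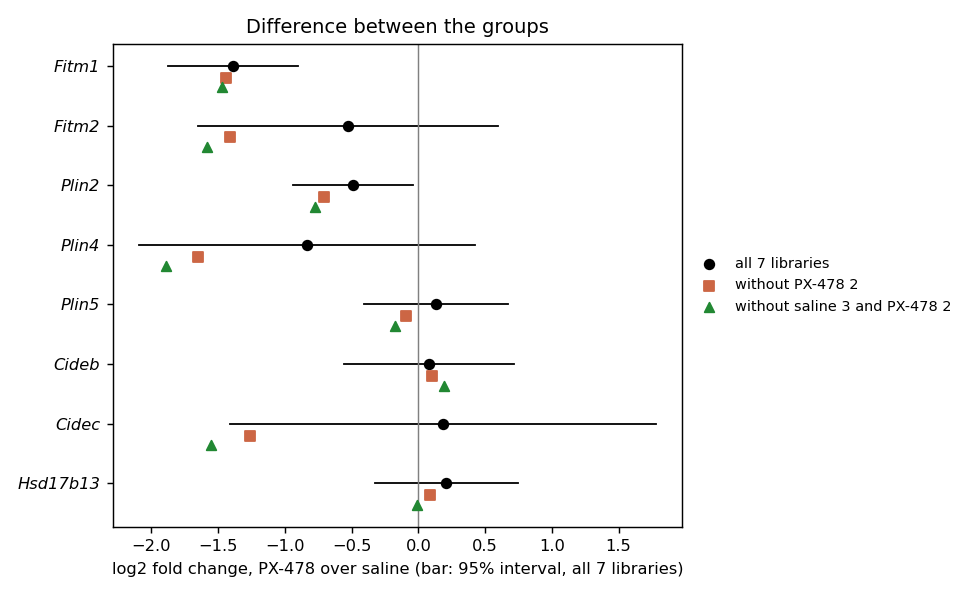
Log2 ratio of the PX-478 to the saline level (log2 fold change) for the 8 tested genes, with the 95% interval from all 7 libraries as a bar and the estimates without PX-478 library 2 and without saline library 3 and PX-478 library 2 as further symbols. Fitm1 stays between -1.39 and -1.47, whereas Cidec moves from 0.18 to -1.26 and -1.55. Leaving out saline library 3 and PX-478 library 2 was chosen after seeing the data.

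Over the 8 tested genes, 4 had lower and 4 higher values in PX-478. Their median log2 fold change was -0.21, beside -0.0035 over all 13693 genes. The genes with lower values were Fitm1, Plin4, Fitm2 and Plin2, and those with higher values were Hsd17b13, Cidec, Plin5 and Cideb. In PX-478 library 2, 4 of the 8 genes had their highest value of all 7 libraries (Fitm2, Plin5, Cidec and Hsd17b13), and 6 of the 8 their highest value within the group. In saline library 3, 5 of the 8 had their lowest value of the saline group. Fitm1 followed neither pattern, as PX-478 library 2 lay between the other PX-478 libraries and saline library 3 between the other saline libraries. With PX-478 library 2 and saline library 3 left out, a fit chosen after seeing the data, the log2 fold change of Fitm1 was -1.47. In that fit 1 of the 8 genes passed the threshold over all genes, Plin4, as did 0.108% of all genes tested. The libraries left out held the highest PX-478 and the lowest saline value of Plin4, at 53.0 and 22.3 CPM. Its call depends on that choice of libraries and is no test. The share of mitochondrially encoded reads, lowest in PX-478 library 2, was not tested as to its part in these values.

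**Figure D3:**
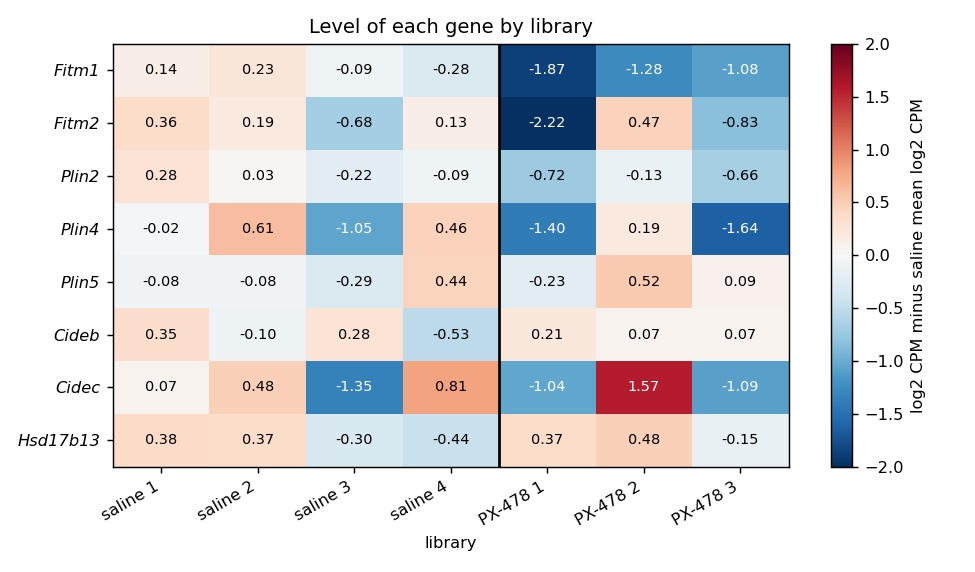
Log2 CPM of each tested gene in each library minus the mean log2 CPM of the 4 saline libraries, with saline left and PX-478 right of the black line. Fitm1 is between -1.87 and -1.08 in all PX-478 libraries, while Cidec is 1.57 in PX-478 library 2 and -1.04 and -1.09 in the other PX-478 libraries.

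Ranked per kilobase of exon, Fitm1 was the most abundant droplet transcript of the set in saline livers. Its level was 72.6 ± 11.5 CPM per kilobase (SD, n = 4), followed by Hsd17b13 at 64.8 ± 18.9, and their ranges overlapped. Plin2 followed at 26.9 ± 4.12 CPM per kilobase and was separate from both neighbours in the order. Plin4 at 8.78 and Plin5 at 7.31 overlapped, as did Cideb at 4.37 with Cidec at 2.92 and Cidec with Fitm2 at 1.27, and Cidea came last at 0.40. In PX-478 livers Fitm1 stood at 27.7 ± 7.33 CPM per kilobase (SD, n = 3), between Hsd17b13 at 74.9 ± 16.4 and Plin2 at 19.2 ± 4.59. Exon lengths came from GENCODE and may differ from the gene models used for counting.

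The spread among the saline libraries is given as a description, since the same libraries entered the choice of the set. The coefficient of variation of Fitm1 over the 4 saline libraries was 15.8% and that of Plin2 was 15.3%, near the medians of 16.6% and 16.2% of genes within 0.5 log2 CPM of each. Plin4 varied by 42.8% against a median of 16.8%, Cidec by 50.5% against 30.3% and Hsd17b13 by 29.2% against 16.5%. For Plin4 and Cidec the low value of saline library 3 made up much of that spread, which was 21.6% and 25.1% without it. Fitm2 at 27.6%, Cideb at 26.1% and Plin5 at 22.8% lay near their medians of 29.9%, 27.2% and 20.9%.

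Promoter sequences from RefSeq (GRCm38.p6, the build of mm10) are shown for Fitm1, which has the widest separation, and for Plin2, the main liver perilipin. Each runs 5′ to 3′ on the strand of the gene, from 250 bases before to 50 bases after an annotated start site. They cover chr14:55575424-55575723 on the plus strand and chr4:86670010-86670309 on the minus strand. Capitals mark ACGTG and GCGTG, the core letters of hypoxia response elements, and AGGTCA, the half-site of PPAR and other nuclear receptors, on either strand.
Fitm1: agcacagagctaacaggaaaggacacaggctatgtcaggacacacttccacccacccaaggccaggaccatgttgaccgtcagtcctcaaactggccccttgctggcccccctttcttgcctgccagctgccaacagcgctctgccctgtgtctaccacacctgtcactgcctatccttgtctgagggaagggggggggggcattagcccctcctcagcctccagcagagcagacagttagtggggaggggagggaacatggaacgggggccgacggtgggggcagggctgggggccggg
Plin2: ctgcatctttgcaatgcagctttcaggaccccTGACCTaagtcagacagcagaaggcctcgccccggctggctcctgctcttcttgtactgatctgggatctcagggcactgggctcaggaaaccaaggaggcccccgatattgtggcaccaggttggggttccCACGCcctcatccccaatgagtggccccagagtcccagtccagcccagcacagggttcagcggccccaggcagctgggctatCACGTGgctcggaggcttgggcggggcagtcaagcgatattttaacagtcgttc
None of these letters was found in the Fitm1 window. The Plin2 window held AGGTCA in reverse orientation 218 bases before the start, GCGTG in reverse orientation 86 bases before it, and ACGTG on both strands within CACGTG next to the start. Among all 32851 promoter windows of that length 19.6% held ACGTG, 32.4% GCGTG and 16.3% AGGTCA, and 0.0396% held DR1, an exact direct repeat of AGGTCA with any single base between its copies, which neither window held. Such matches describe letters and do not show that a factor binds.

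The genes whose levels were most like those of Fitm1 over the 7 libraries were not droplet genes. By Pearson's r of log2 CPM among 11330 other genes with a mean of at least 1 log2 CPM, the closest were Mocs2 (r = 0.98), Oat (0.98), Fth1 (0.98), Dynlrb1 (0.98) and Lhpp (0.98), with Spearman's rho of 0.96, 1, 0.89, 0.93 and 1. These are descriptions over 7 libraries that share the 2 groups. Mean levels of Oat, a mitochondrial enzyme of ornithine breakdown, were 549 ± 120 CPM (SD, n = 4) in saline libraries and 264 ± 44.0 CPM (SD, n = 3) in PX-478 libraries. Lhpp, a phosphatase of phospholysine and phosphohistidine, stood at 90.0 ± 17.3 and 48.8 ± 6.16 CPM. Within the set, r with Fitm1 was 0.80 for Plin2, 0.64 for Fitm2 and 0.56 for Plin4, and between -0.23 and 0.15 for Cidec, Cideb, Plin5 and Hsd17b13. With each group centred on its own mean, r was 0.63 for Fitm2, 0.46 for Plin2, 0.21 for Hsd17b13, 0.18 for both Cidec and Plin4, 0.17 for Cideb and 0.14 for Plin5, so that the order among them was not the same.

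Other genes of droplet biology were read from 4 lists, and 0 of their 71 tested genes passed the threshold over all genes in edgeR. At an unadjusted p below 0.05 there were 8, beside 6.97% of all genes tested, while DESeq2 called 1, Ces1d, beside 0.606% of all genes, and limma-voom 0. The counts of genes with higher and lower values below hold for TMM scaling, and scaling by library size alone, which moved the median of all genes by 0.149 on the log2 scale, shifted them towards higher values. Of 23 tested genes of the droplet surface and coat, 10 were higher and 13 lower in PX-478 (median -0.08 on the log2 scale), and 14 higher and 9 lower by library size alone. The smallest unadjusted p-values belonged to Osbpl2, an oxysterol-binding protein homologue, at 15.9 to 18.8 CPM in saline and 22.8 to 28.3 CPM in PX-478, to Acsl3, an acyl-CoA synthetase of nascent droplets, at 17.3 to 22.0 and 12.3 to 58.5 CPM, and to Mettl7b at 636 to 805 and 393 to 664 CPM. Their log2 fold changes were 0.52, 1.13 and -0.49, with adjusted p of 0.602, 0.654 and 0.697 in edgeR. Of the 23 genes 1, Osbpl2, had groups that did not overlap, beside 8.57% of all genes tested.

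Of 17 genes of droplet formation at the endoplasmic reticulum, 8 were higher and 9 lower, with a median of -0.07, and by library size alone 11 were higher and 6 lower. Lpin2, a phosphatidate phosphatase that makes diacylglycerol, stood at 266, 337, 348 and 325 CPM in saline libraries 1 to 4. In PX-478 libraries 1 to 3 it stood at 808, 383 and 517 CPM, above every saline library (log2 fold change 0.84, SE 0.24, adjusted p = 0.494 in edgeR). The log2 difference was 0.46 (SE 0.27) for Gpat4, which starts glycerolipid synthesis, and -0.75 (SE 0.39) for Soat1, which esterifies cholesterol. Groups did not overlap for 1 gene higher in PX-478, Lpin2, and 1 lower, Dgat1 (named here after its values were seen). Over all genes tested these shares were 4.29% and 4.28%. Dgat1 stood at 39.0 to 42.7 CPM in saline and 30.2 to 38.2 CPM in PX-478.

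Of 15 genes of lipolysis, 9 were higher and 6 lower, with a median of 0.16, and by library size alone 11 were higher and 4 lower. Ces1d, a carboxylesterase that hydrolyses stored triglyceride, stood at 69.0, 211, 74.8 and 221 CPM in saline libraries 1 to 4. It stood at 673, 283 and 587 CPM in PX-478 libraries 1 to 3, where the groups did not overlap (log2 fold change 1.84, SE 0.49, adjusted p = 0.508 in edgeR). In DESeq2 its adjusted p was 0.00372. The log2 difference was 0.66 (SE 0.26) for Ces1f and 0.32 (SE 0.19) for Pnpla2, the main triglyceride lipase. Ces1d and Ces1f belong to a cluster of close copies, so the split of their reads is uncertain. Besides Ces1d, higher in PX-478, 1 gene was lower without overlap, Pnpla8 (named here after its values were seen). It stood at 22.5 to 26.8 CPM in saline and 17.7 to 22.0 CPM in PX-478. Over all genes tested 4.29% were higher and 4.28% lower without overlap.

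Of 16 transcription factors known to control droplet genes, 11 were higher and 5 lower, with a median of 0.08, and by library size alone 14 were higher and 2 lower. The groups overlapped for all 16. For Srebf1, which drives lipogenesis, the log2 difference was 0.74 (SE 0.27) with an adjusted p of 0.602 in edgeR. It was 0.61 (SE 0.24) for Nr1h4, the bile acid receptor FXR, and 0.45 (SE 0.23) for Arnt, the partner of HIF-1α. Pparg, the adipogenic nuclear receptor that controls Cidec and Plin4 and named here after its values were seen, stood at 8.98, 7.63, 6.48 and 7.77 CPM in saline libraries 1 to 4. It stood at 3.13, 16.8 and 3.26 CPM in PX-478 libraries 1 to 3. As for Cidec, PX-478 library 2 was the highest of all 7, but here the other PX-478 libraries lay below every saline library. Its log2 fold change was -0.0035 with all libraries, 0.29 by library size alone and -1.27 without PX-478 library 2.

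**Figure D4:**
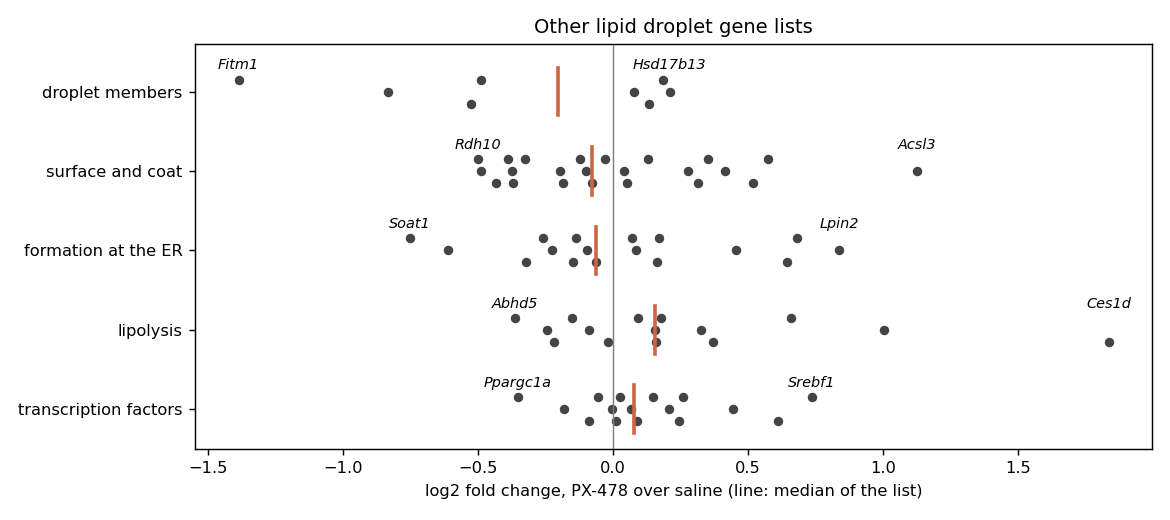
Log2 ratio of the PX-478 to the saline level for the tested genes of the set and of 4 lists, 1 point per gene (spread vertically for visibility), with the median of each list as a line and the genes at both ends named. The medians lie between -0.21 and 0.16, and Fitm1 at -1.39 and Ces1d at 1.84 are the ends.

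Because several of these genes are adipocyte or muscle genes, markers of other cells were read in the same libraries. In bulk liver RNA fewer cells of a type and less RNA per cell cannot be told apart. Of 12 adipocyte markers 6 were in the table, and of the defining ones Adipoq, Retn, Lep and Plin1 none was. The summed level of the adipocyte markers was 53.2 to 78.5 CPM in saline and 39.8 to 50.9 CPM in PX-478, and without Cfd 38.1 to 50.6 and 39.6 to 50.7 CPM. The sum without Cfd was mostly Lipe, Fabp4 and Pparg, with saline means of 21.1, 12.6 and 7.71 CPM and PX-478 means of 27.3, 9.43 and 7.73 CPM. Adig (named here after its values were seen) and Cidea had 0 to 12 reads per library. Their means were 0.471 and 0.448 CPM in saline and 0 and 0.0435 CPM in PX-478, too low to weigh in the sum. Cfd, Adig and Cidea had lower values in PX-478 without overlap of the groups, while Fabp4, Lipe and Pparg overlapped. Among the tested genes of this list that was 1 of 4, Cfd, beside 4.28% of all genes tested that were lower without overlap. Of 10 skeletal muscle markers 4 were in the table, without the defining Ckm and Acta1, while Mylpf stood at 1.28 ± 0.335 CPM in saline (SD, n = 4) and 1.24 ± 0.292 CPM in PX-478 (SD, n = 3). Muscle markers summed to 14.2 to 15.9 CPM in saline and 11.9 to 22.1 CPM in PX-478. Most of that sum was Des, which is also among the stellate cell markers below. Des stood at 11.9 ± 0.754 CPM in saline (SD, n = 4) and 14.7 ± 4.06 CPM in PX-478 (SD, n = 3). Means of Ttn and Atp2a1 were 0.650 and 0.911 CPM in saline and 0.612 and 1.04 CPM in PX-478.

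All 11 macrophage markers were in the table and had lower values in PX-478, at a median of -0.61 on the log2 scale, and 10 of them, without Csf1r, by library size alone. In edgeR 0 of them passed the threshold and 4 had an unadjusted p below 0.05, beside 6.97% of all genes, while DESeq2 called 3 (Gpnmb, Lyz2 and Cd68), beside 0.606% of all genes, and limma-voom 0. The groups did not overlap for 4 of the 11, beside 4.28% of all genes that were lower without overlap. These were Gpnmb (named here after its values were seen), Lyz2, Vsig4 and Cd68, at log2 fold changes of -2.12, -1.12, -0.94 and -0.91. The sum of all 11 macrophage markers was 316 to 613 CPM in saline and 293 to 395 CPM in PX-478. The defining Clec4f, Adgre1 and Csf1r had log2 fold changes of -0.18, -0.45 and -0.01. Plin2 is also made by lipid-laden macrophages, and the part of these cells in its level was not tested. Hepatocyte markers summed to 38285 to 53971 CPM in saline and 34704 to 40918 CPM in PX-478, with 8 of 10 lower (7 by library size alone). Of 10 stellate cell markers 9 were higher (10 by library size alone), with a median of 0.31 and a sum of 340 to 387 CPM in saline and 359 to 561 CPM in PX-478. The defining Lrat, Reln and Dcn had log2 fold changes of 0.26, 0.15 and 0.32 (SE 0.26, 0.25 and 0.24). In each of these 2 lists edgeR, DESeq2 and limma-voom called 0 genes, and 1 of 10 had an unadjusted p below 0.05 in edgeR. Groups did not overlap for 1 hepatocyte marker, lower, and 2 stellate markers, higher, beside 4.28% and 4.29% of all genes tested.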

How the data were processed

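Liver RNA of 7 mice was sequenced, and samples were grouped by their titles. The authors deposited raw read counts per gene as whole numbers. The submitters' processing notes name featureCounts, edgeR and mm10 but no version, and the aligner and strand setting are not given in the sources used here. Per the file headers, the authors' own log2 fold change and unadjusted p-value stand beside the counts, with 7 columns of sample averages that were left out here. All 14889 rows exceeded 0.5 CPM in 2 or more of the 14 columns, so scarcer genes were absent. The 2 count columns of a sample agree more closely than independent samplings of 1 library would (chi-square per gene 0.291 to 0.765, against 49.1 to 145 between libraries of one group). What distinguishes the 2 columns is not stated. They were not treated as replicates, and their rounded mean served as 1 library.

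Low genes were removed with filterByExpr and libraries scaled by TMM. PX-478 was compared with saline by edgeR 4.0.16 in R 4.3.3 (robust quasi-likelihood F test without covariates, Benjamini-Hochberg over the whole table, threshold 0.05). SE was taken as |log2 fold change| divided by the root of F. Log2 CPM used a prior count of 2. Alternatives used limma 3.58.1, DESeq2 1.42.0, other scalings, filters and columns, and a replicate block. The code was tested on simulated data. Genes named are the set itself, the 3 smallest p-values and the defining markers of each list, the 5 genes most like Fitm1 and any gene past the threshold, and some of these are not described. Members and lists were chosen with earlier results of these data known. Counting intervals and floors cover counting error only.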

Additional observations from a re-analysis of the deposited data

How the results depend on the processing

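The log2 fold change of Fitm1 lay between -1.56 and -1.19 under all 19 alternatives, and those of Fitm2 (-1.58 to -0.0871), Plin2 (-0.772 to -0.305) and Plin4 (-1.89 to -0.525) were also negative in all 19. Cidec changed sign in 4 of 19, Cideb and Plin5 in 2 each and Hsd17b13 in 1. Scaling by library size alone moved the median of all genes by 0.149 on the log2 scale, from -0.0035 to 0.145, and changed the sign of none of the 8 genes of the set, and it put the mean of Cideb in PX-478 at 7.33 CPM. For the whole table, where the main counts were 0 genes higher and 1 lower, library size alone gave 4 higher, DESeq2 46 higher and 37 lower, and limma-voom 0 lower. Leaving out saline 3 and PX-478 2, an alternative chosen after seeing the data, gave 9 higher and 6 lower, while leaving out 1 library gave 0 to 4 higher and 1 to 3 lower. In the replicate block fit 1 gene was higher and 2 were lower, and Fitm1 was at -1.5. Deviations of same-numbered libraries correlated at -0.02, -0.07 and -0.002, beside -0.08 to 0.17 for pairs of unlike number. Such correlations over all genes cannot show whether same-numbered animals were paired, which is not stated. Among the saline libraries, leaving out 1 gave coefficients of variation of 8.47% to 34.1% for Fitm2, 8.86% to 18.8% for Plin2, 21.6% to 52.5% for Plin4, 8.15% to 26.8% for Plin5, 16.1% to 30.3% for Cideb and 25.1% to 63.9% for Cidec. The cause of these shifts was not tested. At 0 to 12 reads per library, depth limits Cidea, which the filter removed.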
